A study of Drosophila melanogaster with 6 samples.

Results

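The genes examined here are the non-coding RNA genes listed beside the binding peaks of Klu (Klumpfuss), which binds DNA through zinc fingers, in the Drosophila midgut. They were taken by symbol from the coherent peak table, with every entry whose symbol began with mir-, CR and a digit, snoRNA, snRNA, scaRNA, tRNA, asRNA or lncRNA. This gave 104 genes of the 1667 genes in the table, in 113 of 1900 entries, at 95 of 1122 peaks. By symbol they were 15 miRNA genes, 14 snoRNA genes, 2 scaRNA genes, 1 snRNA gene and 72 genes with a CR number, and no symbol began with tRNA, asRNA or lncRNA. The measured values did not enter the choice.

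Targeted DamID was used, in which a bacterial DNA adenine methylase (Dam) is fused to a protein, and GATC sites close to where the protein sits on DNA become methylated. Methylated fragments are then amplified and sequenced. The series held 6 libraries. The 3 Klu-Dam libraries came from flies of the genotype esgts, UAS-Flp, UAS-Klu Dam, and the 3 Dam-only libraries from flies with esgts, UAS-Flp and the UAS-Dam control. In both groups the esg driver confined Flp, which removes a stop cassette before Dam, to Esg-positive stem and progenitor cells, while DNA was prepared from whole midguts, with 30 to 40 midguts per library by the labels. Crosses were kept at 18 °C, progeny were moved to a warmer temperature for 24 h of induction, and replicate sets were isolated on different dates. Age and sex were not given in the sources used here. The tables held read counts for the Klu-Dam libraries, so no peak could be set against Dam-only here and each peak was taken as the authors called it.

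Reads in the coherent peaks numbered 19521921, 18287201 and 18347327 in Klu-Dam replicates 1, 2 and 3. Counts were divided by these sums and are given as CPM, the count per 1000000 reads in coherent peaks, with the mean and SD over the 3 libraries. No contrast between conditions exists for these counts, so no p-value was computed. Amplified reads are not independent molecules. The lowest count at any of the 95 peaks was 81 reads.

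MicroRNAs are cut from a hairpin in a longer transcript, and bases 2 to 8 of the mature product, the seed, pair with target mRNAs. A mirtron is a hairpin that is a whole intron and is freed by splicing. Box C/D and box H/ACA snoRNAs guide methylation and pseudouridylation of ribosomal RNA, and scaRNAs do the same for spliceosomal RNAs. The U2 snRNA recognises the branch point of introns. Most fly snoRNAs and many fly miRNAs lie within introns of protein-coding genes. Symbols made of CR and a number mark non-coding genes that mostly have no known function. In the reference annotation 51 of the 72 CR genes were long non-coding RNAs (lncRNA) and 19 were antisense RNAs (asRNA), which are transcribed from the strand opposite to another gene. The remaining pair were CR40741, an rRNA pseudogene, and CR43334, whose identifier had no match.

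Of the 15 miRNA genes, 3 were hairpins whose ends matched an intron of the host gene base for base, namely mir-1014 in salt, mir-1016 in Opa1 and mir-4911 in ND-23. Among all 260 annotated miRNA genes, 33 (12.7%) had this form. Mature products of 7 of the 15 genes, cut from the RefSeq annotation of the Release 6 genome, are printed below. They are from mir-966, mir-190 and mir-2489, which had 3 of the 4 highest values by gene, from mir-13b-2, for the family that shares its seed, from the mirtrons mir-1014 and mir-4911, and from mir-4958, for a GATC site in its seed. Those of the other genes, among them mir-1016 and mir-4948, are left out. Capitals mark the seed.
mir-966-5p: uGUGGGUUgugggcugugugg
mir-966-3p: cCGCCAGUugauaacccccagc
mir-190-5p: aGAUAUGUuugauauucuugguug
mir-13b-2-3p: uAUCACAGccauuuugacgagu
mir-2489-3p: uAUUGUAUguuguauuugcagu
mir-1014-5p: uAUAAUGGaaauagauuuuaau
mir-1014-3p: aAAAUUCAuuuucauuugcag
mir-4911-3p: aUCUUUUUguccccccgcguag
mir-4958-5p: gGGAUCUGgaacgggcucuggu
Only mir-13b-2-3p shared its seed with other annotated fly miRNA genes, 13 of them, among them mir-2a-1, mir-11 and mir-308. The products above lie at chr2L:6045627-6045713 (mir-966, minus strand), chr3L:8571799-8571898 (mir-190, plus strand), chrX:9091230-9091299 (mir-13b-2, plus strand), chr2L:13609974-13610068 (mir-2489, plus strand), chr3R:31753524-31753591 (mir-1014, minus strand), chr3R:15836287-15836354 (mir-4911, minus strand) and chrX:16080923-16081056 (mir-4958, minus strand), which are the positions of the hairpins.

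Of the mirtrons, 2 hairpins are shown whole, with the mature products in capitals. Each begins with gt and ends with ag, the splice sites of the host intron.
mir-1014: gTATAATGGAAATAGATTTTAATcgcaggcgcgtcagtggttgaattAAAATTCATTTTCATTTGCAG
mir-4911: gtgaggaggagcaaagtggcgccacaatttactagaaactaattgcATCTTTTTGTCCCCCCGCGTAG
The snoRNA pair below shared a single peak beside them, and scaRNA:MeU5-G38 and U2 lay inside their peaks. Capitals mark TGATGA (box C) and CTGA (box D), each searched on the RNA strand within 25 bases of an end, or GTAGTA in U2, the stretch that pairs with the branch point.
snoRNA:Me18S-G1358a: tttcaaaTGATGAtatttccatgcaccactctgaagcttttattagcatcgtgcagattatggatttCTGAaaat
snoRNA:Me18S-G1358b: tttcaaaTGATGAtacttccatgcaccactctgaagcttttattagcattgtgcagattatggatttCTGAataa
scaRNA:MeU5-G38: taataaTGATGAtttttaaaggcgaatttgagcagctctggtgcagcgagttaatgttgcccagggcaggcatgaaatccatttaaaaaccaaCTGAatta
snRNA:U2:34ABa: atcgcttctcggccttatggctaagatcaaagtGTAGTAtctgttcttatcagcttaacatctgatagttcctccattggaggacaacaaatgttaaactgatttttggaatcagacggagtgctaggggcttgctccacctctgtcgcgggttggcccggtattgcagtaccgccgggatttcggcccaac
These genes lie at chr3R:9354268-9354342 and chr3R:9355313-9355387 (plus strand), chr3R:22036343-22036443 (plus strand) and chr2L:13211925-13212116 (minus strand). The G1358 pair differed at 4 of 75 bases. Both C/D boxes were found in 3 of the 14 snoRNA and scaRNA genes that matched the reference and in 85 of all 274 (31.0%), and an ACA followed by 3 bases at the end, the mark of the H/ACA class, in 5 of the 14 and in 114 of the 274 (41.6%). GTAGTA was present in 6 of 32 annotated snRNA genes, all of them U2. None of the other 5 U2 genes was identical to U2:34ABa, but the 4 of equal length differed from it at up to 2 bases, so reads of 50 bases from these copies may not be told apart.

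The first question was how often each class of non-coding gene was listed. Matched by identifier, 9.33% of all 17683 annotated genes were listed with a coherent peak, and over protein-coding genes 11.1%. Every non-coding class except scaRNA lay below both. The listed genes were 15 of 260 miRNA genes (5.77%), 12 of 257 snoRNA genes (4.67%), 2 of 17 scaRNA genes (11.8%), 1 of 32 snRNA genes (3.13%), 19 of 503 asRNA genes (3.78%) and 52 of 1944 lncRNA genes (2.67%), with 0 of 295 tRNA genes. The median annotated gene was 92 bases long for miRNA, 662.5 for lncRNA and 2166 for protein-coding genes, and a longer gene is near more sequence, so these shares are not on 1 footing. The lncRNA share counts by reference class, and takes in 1 lncRNA gene listed under a CG symbol. Listing also missed genes under peaks. By overlap of gene bodies with a coherent peak, the share was 8.64% of all genes, 7.36% of asRNA genes and 4.75% of tRNA genes. It was 4.23% for miRNA, 3.50% for snoRNA and 2.78% for lncRNA genes, and the same as the listed share for scaRNA and snRNA genes. The low listed shares of asRNA and tRNA genes are thus partly those of the listing.

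The listing itself set part of what was found. Each listed distance was 0 only where an edge of the peak lay in the gene. Of 39 pairs in which the gene lay inside or after the peak, CR40741 left out, 38 had a distance above 0, and for all 38 it equalled the stretch from the start of the peak to the start of the gene. So mir-190 carried a distance of 297 bases and mir-966 one of 1154, although both lay inside their peaks. A distance of 0 was given for 36 of 113 entries of non-coding genes (31.9%), against 1254 of 1787 other entries (70.2%). With the reference annotation, 63 of the 111 distinct pairs of a non-coding gene and a peak overlapped (56.8%), and 33 of the genes lay wholly inside the peak, 32 of them at a listed distance above 0. Genes that did not overlap lay before the peak in 38 pairs and after it in 6, along the arm, with CR40741 again left out.

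CR40741 was listed at 4 peaks of the X with no other gene. Its listed span of 23250911 bases, nearly all of the arm, is that of no such gene in the reference, where CR40741 is an rRNA pseudogene of 1258 bases (chrX:23239718-23240975). The 4 peaks ended between 2262590 and 10756850 bases before it. Without it there were 103 genes at 91 peaks, and no other gene lay more than 1961 bases from its peak.

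Of the 33 small RNA pairs, 19 had the small RNA gene inside the peak and 1 more, snoRNA:Me18S-C1831, overlapped by a single base, since the peak ended on its first base in the order of the arm. By class, 8 of 16 miRNA pairs, 8 of 14 snoRNA pairs, 2 of 2 scaRNA genes and the snRNA gene lay inside. DamID resolves no finer than a GATC fragment, and the fragment that held the middle of the gene lay wholly in the peak for 19 of the 33 pairs. These fragments were 79 to 1941 bases long. A GATC site lay within 5 of the 15 miRNA hairpins (mir-966, mir-4948, mir-4956, mir-4958 and mir-4975), and in mir-4958 it fell within the seed of the 5p product shown above.

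**Figure D1:**
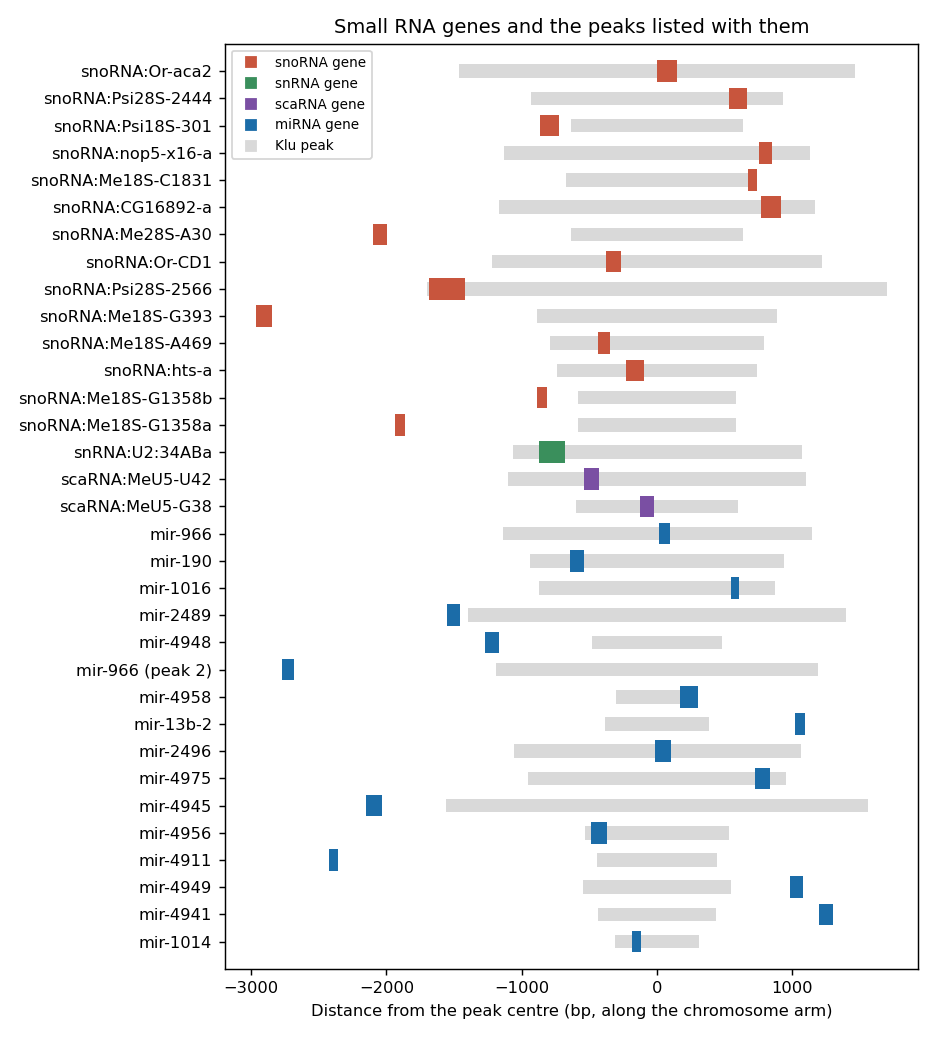
Position of each small RNA gene (coloured) relative to the centre of the Klu peak listed with it (grey), in bp along the chromosome arm; each row is 1 gene and peak pair, grouped by RNA class, and mir-966 has a row for each of its peaks. The gene lies inside the peak in 19 of 33 pairs. Genes outside lie mostly before it, a side that the way distances were listed favours.

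Among miRNA genes, mir-966, in an intron of the purine synthesis gene Pfas, had the highest peak. Its peak held 63898, 54166 and 50137 reads in replicates 1, 2 and 3, or 2989 ± 271 CPM (SD, n = 3), and ranked 74 of 1122. The hairpin lay close to the middle of this peak. A second peak, 1495 bases away, held 7558, 8209 and 7204 reads (410 ± 34.2 CPM), lower than the first in all 3 libraries. Both were listed with mir-966 alone, although in the reference the first overlapped Pfas, slmo and CG34179 and the second overlapped IPIP, slmo and CG34179.

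mir-190, in an intron of rhea, which encodes talin, an adaptor that links integrins to actin, held 15036, 12899 and 13795 reads (742 ± 33.4 CPM, rank 227). The libraries lay close together here, with a coefficient of variation of 4.50%, the lowest among the miRNA peaks. The same peak was listed with rhea and CR43910, a lncRNA also within rhea. mir-1016, in an intron of Opa1, a gene of mitochondrial fusion, held 14140, 14730 and 9582 reads (684 ± 146 CPM), with replicate 3 lowest. Its peak was listed with no coding gene, although it overlapped Opa1. mir-2489 lay across a short intron of kuz, an ADAM protease that cleaves Notch, and ended 56 bases before its peak. That peak held 11762, 9128 and 5231 reads (462 ± 162 CPM), overlapped kuz, and was listed without it.

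mir-4948, on the strand opposite to the alkaline phosphatase gene Alp4, listed as Aph-4, had a peak of 9303, 8628 and 5352 reads (413 ± 105 CPM) 687 bases away. mir-4958 lay within coding sequence of Tob, a gene of the anti-proliferative BTG/Tob family. Its peak, with 8267, 8042 and 6421 reads (404 ± 47.8 CPM), ended at the last base of the hairpin along the arm. mir-13b-2, in an intron of the chaperonin gene CCT2, listed as CG7033, had 5187, 5835 and 4295 reads (273 ± 43.0 CPM) in a peak 639 bases before it. mir-2496 lay inside a peak of 4187, 4567 and 4938 reads (244 ± 27.7 CPM) that was also listed with Hr4, a nuclear receptor gene, east and CG4406. It was the 1 miRNA gene of the 15 outside any coding gene.

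mir-4975, in introns of CG45092 and chk, shared its peak with CR43611 and held 2285, 3481 and 4858 reads (191 ± 73.9 CPM). It had the widest spread of the miRNA peaks, with a coefficient of variation of 38.7%. mir-4945, in an intron of sals, an actin regulator of sarcomeres, had 2562, 3222 and 3121 reads (159 ± 24.4 CPM). mir-4956 lay inside its peak and in coding sequence of Sxl, the switch gene of sex determination, with 1526, 1761 and 1484 reads (85.1 ± 9.78 CPM). These peaks were middling to low among all coherent peaks, with ranks of 505, 557 and 771.

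The mirtron mir-4911, in an intron of the complex I gene ND-23, had a peak of 1312, 1360 and 1121 reads (67.6 ± 6.64 CPM) that lay 1912 bases away and overlapped spn-E, a gene of piRNA production, which was not listed. mir-4949, in the 5' UTR or an intron of ATPsynC, a subunit of ATP synthase, had 867, 952 and 1349 reads (56.7 ± 15.1 CPM). mir-4941, in coding sequence of Notum, a secreted inhibitor of Wnt signalling, had 456, 588 and 591 reads (29.2 ± 5.09 CPM). The third mirtron, mir-1014, lay inside the lowest of these peaks, with 263, 288 and 231 reads (13.9 ± 1.63 CPM, rank 1114). The 3 mirtrons thus covered a wide range, with mir-1016 highest and mir-1014 lowest in all 3 libraries.

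As a class, the 16 miRNA peaks had median values of 240, 284 and 267 CPM in replicates 1, 2 and 3, against 143, 162 and 164 CPM for the 1027 peaks with no non-coding gene listed. Single miRNA peaks ran from 13.9 to 2989 CPM, so the class spanned both sides of that median. A same-strand coding gene held 13 of the 15 hairpins, against 136 of all 260 annotated miRNA genes (52.3%). All 16 miRNA peaks overlapped a coding gene in the reference, and 12 were listed with one.

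**Figure D2:**
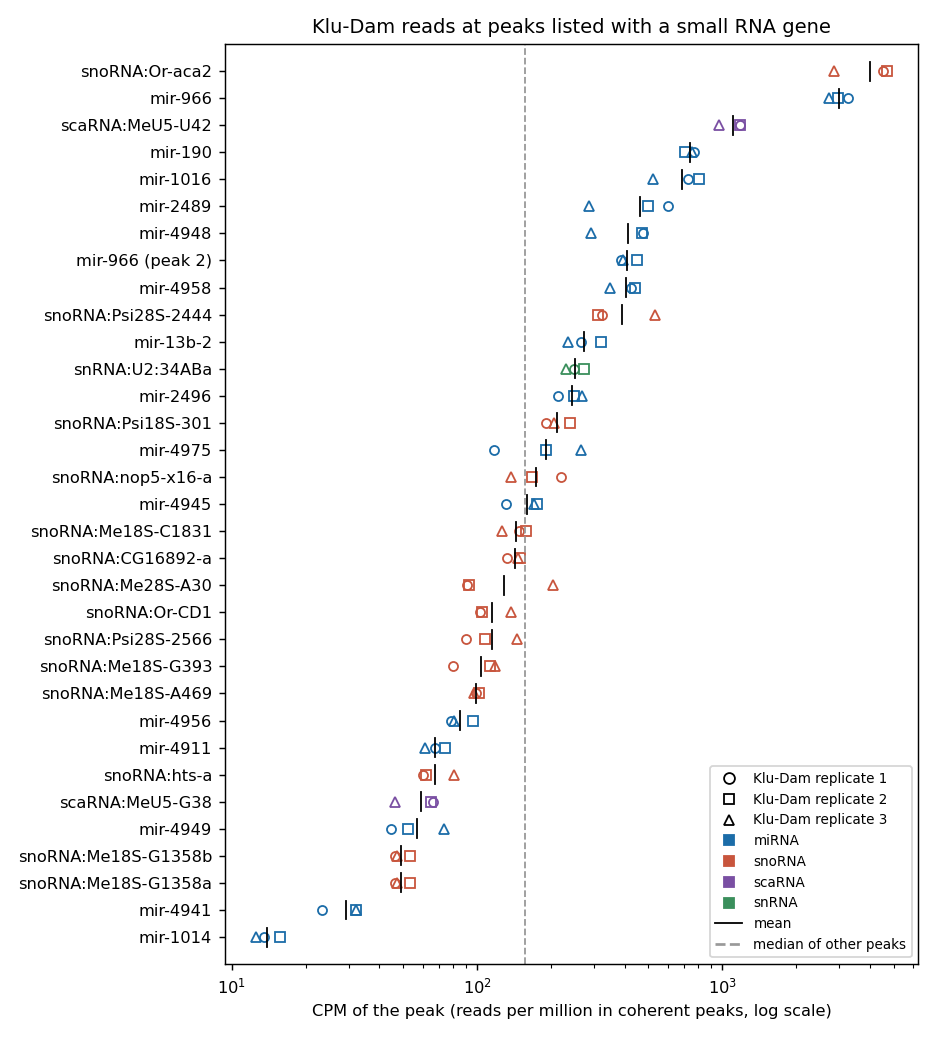
CPM of each peak listed with a small RNA gene (log axis), with a point for each of the 3 Klu-Dam libraries and a black bar for their mean; colours are RNA classes, and the dashed line is the median of the peaks with no non-coding gene listed. Values run from 13.9 CPM at mir-1014 to 4027 CPM at snoRNA:Or-aca2, with 3 peaks above 1000 CPM.

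Among snoRNA genes, the peak of snoRNA:Or-aca2 was the highest by far. This box H/ACA gene lies within RpS6 on the X (chrX:7901062-7901203, minus strand), a gene of the small ribosomal subunit, in its 5' UTR or an intron by transcript. The peak held 88125, 85942 and 52581 reads (4027 ± 1009 CPM), ranked 56, and had replicate 3 lowest. It was listed with the snoRNA alone, although it overlapped RpS6 and bys, a gene of ribosome assembly. snoRNA:Psi28S-2444, in an intron of RpL11, a gene of the large subunit, held 6318, 5714 and 9782 reads (390 ± 124 CPM), with replicate 3 highest here. RpL11 and Spt5, a transcription elongation gene, were overlapped and not listed.

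The next were snoRNA:Psi18S-301, 97 bases before a peak of 3732, 4385 and 3779 reads (212 ± 24.9 CPM) listed with TFAM, a gene of mitochondrial DNA maintenance, and CG5412, and snoRNA:nop5-x16-a, inside a peak of 4294, 3058 and 2514 reads (175 ± 42.0 CPM). snoRNA:nop5-x16-a lies in introns of nop5, which encodes a core protein of box C/D particles, and of x16, a splicing factor gene, and its peak was also listed with the mitotic kinase gene Wee1. snoRNA:Me18S-C1831, in an intron of RpL27A, had 2885, 2908 and 2316 reads (144 ± 16.7 CPM). snoRNA:CG16892-a, in an intron of the nuclear pore gene Aladin, had 2592, 2750 and 2692 reads (143 ± 9.29 CPM), and neither Aladin nor Cfp1, which its peak also overlapped, was listed.

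snoRNA:Me28S-A30 lay 1362 bases before a peak of 1770, 1696 and 3729 reads (129 ± 64.4 CPM) at Eip75B, an ecdysone-induced nuclear receptor gene. Its libraries were the least alike of the snoRNA peaks, since replicate 3 stood above the other 2. snoRNA:Or-CD1, now named snoRNA:Me18S-C1968, lay in an intron of Swim and had 2009, 1917 and 2514 reads (115 ± 19.2 CPM). snoRNA:Psi28S-2566, in an intron of CG3902 and listed also with RpL26, had 1764, 1978 and 2682 reads (115 ± 28.5 CPM). snoRNA:Me18S-G393, 1961 bases before a peak listed with Cyp9c1, had 1557, 2075 and 2176 reads (104 ± 21.1 CPM).

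The most even snoRNA peak was that of snoRNA:Me18S-A469, in an intron of the helicase gene pths, with 1933, 1863 and 1790 reads (99.5 ± 2.19 CPM) and a coefficient of variation of 2.21%. snoRNA:hts-a, in an intron of hts, the gene of adducin, a protein of the membrane skeleton, had 1173, 1129 and 1473 reads (67.4 ± 11.2 CPM), and hts was not listed. The G1358 pair, in introns of drn, lay 1278 and 233 bases before 1 shared peak of 901, 974 and 864 reads (48.8 ± 3.86 CPM), the lowest of the class. As a class, the 13 snoRNA peaks had medians of 103, 113 and 137 CPM in replicates 1, 2 and 3, below the 143, 162 and 164 CPM of the 1027 peaks with no non-coding gene listed. All 13 overlapped a coding gene, but only 8 were listed with one.

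The scaRNA genes, both named for sites on the U5 spliceosomal RNA, differed widely. scaRNA:MeU5-U42, in an intron of CG12316, lay inside a peak of 23163, 21611 and 17742 reads (1112 ± 125 CPM, rank 161). scaRNA:MeU5-G38, in an intron of the RNA helicase gene pit, lay inside a peak of 1288, 1185 and 852 reads (59.1 ± 11.0 CPM), which was also listed with the death-domain adaptor gene Fadd and CG6015. The values of the 2 genes did not overlap in any library, and replicate 3 was lowest at both. The snRNA gene U2:34ABa, listed with Pect, kek4 and CG15482, lay inside a peak of 4849, 5005 and 4251 reads (251 ± 21.1 CPM, rank 447).

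The highest of the 95 peaks listed with a non-coding gene was listed with CR genes. CR43474, an asRNA gene, and CR43475, a lncRNA gene, lie within loco and on its opposite strand. The gene loco encodes an RGS protein, which ends G protein signalling. They were listed together with 2 peaks. The higher held 213989, 180022 and 263289 reads (11719 ± 2347 CPM), ranked 19, and overlapped CR43474 by 302 bases but not CR43475. The lower held 2153, 2143 and 2937 reads (129 ± 27.0 CPM) and took in all of CR43475 and the start of CR43474. The higher peak thus overlapped the 3' end of the antisense gene along its own strand, and the lower its 5' end.

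CR32773, a lncRNA gene of 223710 bases on the X, had the next highest. Its peak, inside the gene and far from its start, held 112255, 82497 and 87399 reads (5008 ± 655 CPM, rank 45), and a further peak inside it held 841, 1058 and 1084 reads (53.3 ± 8.91 CPM). No coding gene was listed with or overlapped by either. It was 1 of 3 CR genes over 100 kb in the reference, with CR44357 and CR44833, for which a peak inside the gene body says little of place.

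CR44119, an asRNA gene, had 67819, 67253 and 67984 reads (3619 ± 126 CPM) in a peak over its start that was also listed with PGAP5, SLC5A11 and CG8460, and its libraries hardly differed. CR45237, a lncRNA gene 124 bases from its peak, had 77550, 66994 and 46271 reads (3386 ± 764 CPM), with replicate 3 lowest and no coding gene listed. CR44053, an asRNA gene, had 56967, 70629 and 43679 reads (3054 ± 750 CPM), in a peak listed with ppk28, a sodium channel family gene, and CG4829. CR43613, a lncRNA gene, lay wholly inside a peak of 62992, 60794 and 46575 reads (3030 ± 428 CPM) with no coding gene listed or overlapped. The means of CR44053 and CR43613 differed by less than the SD of either, and their order changed between libraries.

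CR43988 lay inside a peak of 21704, 25068 and 23037 reads (1246 ± 130 CPM) listed with the larval storage protein gene Lsp1gamma. CR44277, within blo on the other strand, had 22900, 24716 and 21103 reads (1225 ± 110 CPM) and was listed with CG8740. These means, too, lay within 1 SD of each other. CR40741 had its highest entry at 24427, 22667 and 15548 reads (1113 ± 230 CPM), with the limit on its position given above. CR45113 and CR45114, neighbouring lncRNA genes, shared a peak of 17287, 16055 and 14003 reads (842 ± 68.5 CPM) with no coding gene listed.

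At the low end, CR45449 and CR45450 shared a peak of 234, 262 and 81 reads (10.2 ± 5.18 CPM, rank 1119), and CR44833, a lncRNA gene of 107223 bases, had 180, 358 and 227 reads (13.7 ± 5.31 CPM). The peak of CR44833 overlapped ovo, a germline transcription factor gene, which was not listed. At such counts the 3 libraries differed widely, with coefficients of variation of 50.6% and 38.7%. How much of this was counting error was not tested. The remaining CR genes lay between these values.

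Whether a coding gene was listed at the same peak differed by class. A protein-coding gene was listed with 59 of the 95 peaks (62.1%), and with 1025 of the 1027 others (99.8%). Every peak in the table has some gene listed, so a peak without a non-coding gene has a coding one almost by construction. In the reference, 67 of the 95 peaks overlapped a coding gene body (70.5%), against 1004 of the 1027 others (97.8%). All 19 peaks of asRNA genes had a coding gene listed, as had 22 of the 45 peaks of lncRNA genes. Since an asRNA gene is defined by lying opposite another gene, the first share is partly set by the class. The 36 peaks without a listed coding gene fell into 12 that overlapped one in the reference and 24 that did not. The 12 were 4 peaks of miRNA genes, 5 of snoRNA genes and 3 of lncRNA genes, and the 24 were all at CR genes, 4 of them at CR40741.

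The 3 lncRNA peaks of the 12 were those of CR43411, which overlapped Adh, the alcohol dehydrogenase gene, Adhr and osp, of CR44833, given above, and of CR44357, which overlapped CG1677. CR43411 and CR44357 were named after their values were seen. Median CPM was 157, 173 and 173 in replicates 1, 2 and 3 for the 36 peaks without a listed coding gene and 117, 156 and 160 for the 59 with one, and the ranges overlapped almost fully.

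Reads at the 95 peaks were about as many as at the others. Their medians were 133, 159 and 165 CPM in replicates 1, 2 and 3, against 143, 162 and 164 CPM at the 1027 other peaks. The log2 ratio of the medians was -0.10, -0.02 and 0.01, with a mean of -0.04 ± 0.06 (SD, n = 3), so it was smaller than the spread between libraries and its sign differed among them. The 95 peaks were 8.47% of all peaks and held 5.90%, 5.91% and 5.76% of the reads in peaks. None was among the 10 highest peaks, and 8 were among the highest 100. Median width was 1746 and 1697 bp, and median GC content 44.1% and 45.5%, at the 95 peaks and at the others.

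**Figure D3:**
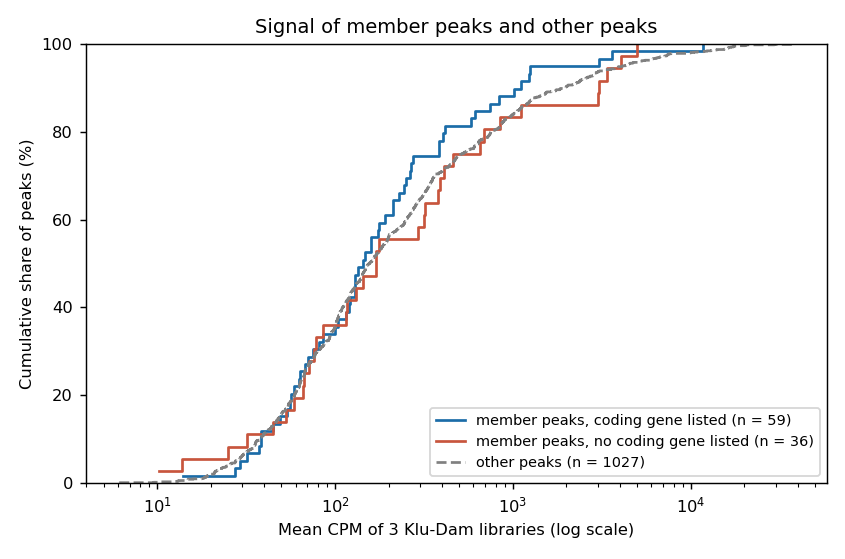
Cumulative share of peaks (%) by mean CPM of the 3 Klu-Dam libraries (log axis), for the 59 peaks listed with a non-coding and a coding gene, the 36 listed with non-coding genes only, and the 1027 other peaks. The curves run close together, with medians of 144, 170 and 156 CPM.

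The spread between libraries was also like that of other peaks. The median coefficient of variation was 16.3% at the 95 peaks and 16.7% at the others, and single peaks ran from 1.97% at CR43682, named after its values were seen, to 73.5% at the peak of CR43334 and CR43423. Without replicate 3 the medians were 10.4% and 9.98%. Replicate 3 was at least 1.5-fold above the mean of replicates 1 and 2 at 9 of the 95 peaks (9.47%), against 15.2% of all coherent peaks. It was at least 1.5-fold below at 9 (9.47%), against 8.56% of all coherent peaks. The second share was near its background and the first somewhat under it.

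The peaks with replicate 3 higher included those of mir-4949, of mir-4975 with CR43611, and of snoRNA:Psi28S-2444 and snoRNA:Me28S-A30. The other 5 were at CR genes, and are named here after their values were seen. The peak of CR43334 and CR43423 held 1182, 1367 and 3969 reads, and that of CR43411 at Adh held 870, 1000 and 2477. CR44644, CR44645 and CR44646 shared a peak of 13248, 14336 and 29172 reads. It was listed with the odorant-binding protein genes Obp57a and Obp57b but overlapped no coding gene. The identifier listed as Obp57a is named Obp57c in the reference. CR44757 had 7377, 7743 and 17182 reads, and CR45350 had 1424, 1686 and 3637. In each of these 5 peaks replicates 1 and 2 lay close together and replicate 3 stood apart.

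Those with replicate 3 lower included the peaks of mir-2489, mir-4948, snoRNA:Or-aca2, CR45237 and CR45449 with CR45450. The others, again named after their values were seen, were CR44801 (541, 656 and 218 reads), CR45469 (6669, 5360 and 3033 reads) and 2 of the 4 peaks of CR40741. Of the 9 lower peaks, 7 were among the 36 without a listed coding gene (19.4%), 2 of those 7 at CR40741, and 2 were among the 59 with one (3.39%). The 9 higher peaks were 3 of the 36 (8.33%) and 6 of the 59 (10.2%). No test of this split was made. The log2 ratio of replicate 3 ran from -1.58 at CR45449 to 1.68 at CR43334 over the 95 peaks.

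**Figure D4:**
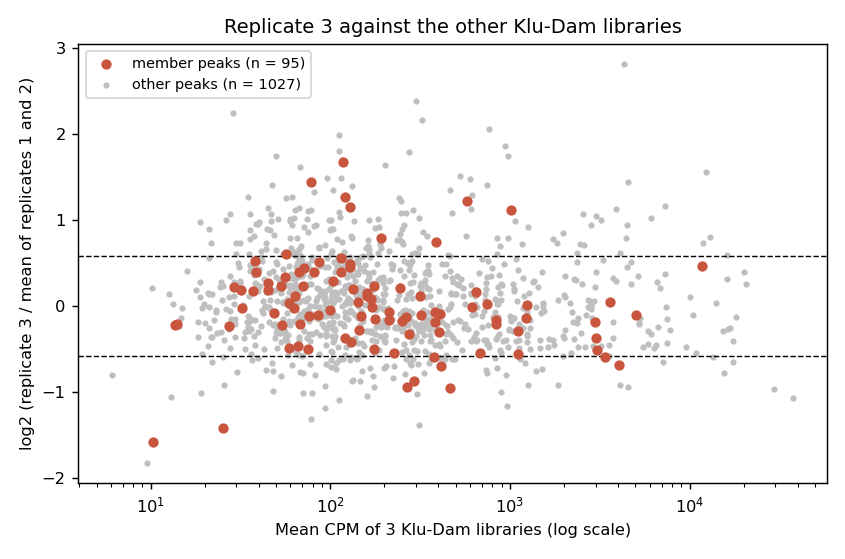
log2 ratio of Klu-Dam replicate 3 over the mean of replicates 1 and 2 against mean CPM (log axis); red points are the 95 peaks with a non-coding gene listed, grey points the 1027 others, and dashed lines mark 1.5-fold. Red points lie above the upper line in 9 cases and below the lower line in 9.

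The genes that make or act through small RNAs were looked up for comparison. Of 16 genes of small RNA machinery, 2 were listed, against 11.1% of protein-coding genes and 9.33% of all annotated genes. These were Tailor, which adds uridines to miRNA precursors, with 10634, 15599 and 14753 reads (734 ± 166 CPM), and Nbr, an exonuclease that trims miRNAs, with 3057, 3795 and 3231 reads (180 ± 25.7 CPM). Of the rest, drosha, which cuts primary miRNA transcripts, lay 641 bases from a peak, Dcr-2, which makes small interfering RNAs, 796 bases from one and Ranbp21, the fly exportin 5, 1426 bases from one. None of them was listed. These distances are to the nearest edge of the peak, whereas listed distances to genes after a peak ran from its start, so the 2 are not alike. Of 23 miRNA genes known from fly growth or the midgut, 0 were listed, against 5.77% of all annotated miRNA genes. The closest, bantam, lay 2684 bases from a peak. That peak was listed at a distance of 0 with CR43334, whose listed span (chr3L:628435-643900) takes in bantam as well. Likewise, the peak nearest mir-184, 7102 bases away, was listed with CR44206, whose listed span takes in mir-184. The peaks nearest mir-8, 4410 bases away, and mir-263a, 15643 bases away, were also listed at a distance of 0, with CR43650 and CR43314. Whether the spans of CR43650 and CR43314 take in these miRNA genes was not examined. Of 12 further non-coding RNAs with a known role, all lncRNAs but 7SL and 7SK, 10 were found in the reference. Of these 0 were listed, against 2.67% of all annotated lncRNA genes. The closest was roX1, a gene of X chromosome dosage compensation, at 5139 bases. Lists this short could hold 0 at either share, so these counts say little.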

How the data were processed

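DamID DNA from 3 Klu-Dam and 3 Dam-only fly samples was measured. The authors aligned reads of 50 bases to dm6 with bowtie2 within damidseq_pipeline, called peaks, and attached genes within 2 kb with their own script. HOMER is also named in the submitters' processing notes. The deposited tables hold whole-number counts of reads per peak in the Klu-Dam libraries, not normalized; 0 columns of sample values were left out. How reads were counted over peaks, and what separates coherent from semicoherent peaks, is not given in the sources used here.

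Entries were reduced to distinct peaks and counts divided by the sum over coherent peaks. All 1122 peak starts and ends fell within a GATC site of the Release 6 genome. Positions are 1-based. Gene bodies, strands and hosts came from the Ensembl release 115 annotation, in which 101 of 104 identifiers matched and 97 kept their coordinates. Overlap meant at least 1 bp. Named genes were all small RNA genes, the 10 highest and 3 lowest CR genes, and the 6 highest CR genes without a listed coding gene, with coding genes at their peaks. The members and lists were chosen with earlier results of these data known. Alternatives were each replicate left out, library totals, reads per kb, the semicoherent set, a minimum of 500 reads, reference overlap and reference biotype. Medians, spreads and calls were checked on simulated data. Python 3.11.15, numpy 2.4.6, pandas 2.3.3 and scipy 1.17.1 were used. No Dam-only counts were analysed here, so reads from Klu binding and from methylation by Dam in open chromatin cannot be told apart.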

Additional observations from a re-analysis of the deposited data

Results flagged for a closer look

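The semicoherent peak set, which the comparisons above did not use, listed 13 non-coding RNA genes that the coherent set did not. None of their peaks overlapped a coherent peak. CPM here is of the reads in semicoherent peaks. A single peak on 2L was listed with snoRNA:Me18S-G1620, snoRNA:Me18S-A1576, snoRNA:U14:30Ea and snoRNA:U14:30Eb, and held 24210, 23493 and 64312 reads in replicates 1, 2 and 3 (1854 ± 1177 CPM, SD, n = 3), with replicate 3 far above the others. The peak of a further snoRNA gene, on 3R, held 22812, 15963 and 17804 reads, and that of CR43875 held 11770, 9126 and 8717. CR45234 had 716, 1113 and 8787 reads, so that most of its reads were in replicate 3. The other genes were CR44135, CR44740, CR45517 and 3 snoRNA genes of 1 cluster on 2R (snoRNA:Me28S-A3407a, snoRNA:Me28S-A1666a and snoRNA:Me28S-G3081a), whose shared peak held 592, 1033 and 1188 reads. No background of Dam-only reads was used here, and whether these peaks exceed it was not tested.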

How the results depend on the processing

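Of 28 alternative values, 23 stayed within the spread of the libraries, the binomial interval or 1.5 times the count. Some of these could hardly change. Library totals scale both sets of peaks alike and so leave the ratio of medians as it was, and 1.5 times the count is a wide limit. The log2 ratio of median CPM at peaks with a non-coding gene over other peaks, -0.04, was -0.23 by reads per kb, -0.14 with at least 500 reads in each library and 0.14 in the semicoherent set, and ran from -0.06 to -0.0046 with a replicate left out, so its sign is not settled. The median coefficient of variation, 16.3%, ran from 10.4% to 16.9% with a replicate left out. The share of entries at a distance of 0, 31.9%, was 56.8% by overlap of gene bodies, which counts genes inside peaks by construction. The number of genes was 105 by reference biotype, 116 in the semicoherent set, 128 by gene bodies overlapped and 103 without CR40741, a choice made after seeing the data, as were the alternatives for the lists of small RNA machinery. No paired analysis was possible because the result comes from counts of Klu-Dam libraries alone and from no test. The cause of these shifts was not tested. At the lowest peaks, with as few as 81 reads, counting error limits what a single library can show.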

Other observations

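Peaks also overlapped non-coding genes that the table did not list with any coherent peak. In the reference there were 67 of these, with 3 miRNA genes, 14 tRNA genes, 29 asRNA genes and 21 lncRNA genes. They were 2.03% of the 3308 annotated non-coding genes, against 1.67% of all 17683 annotated genes that were overlapped and not listed by identifier or symbol. The highest was mir-1010 on 3R, under a peak of 398473, 319137 and 261859 reads (17378 ± 3070 CPM, SD, n = 3), rank 7, which was listed with SKIP alone and is higher than any peak listed with a non-coding gene. The other 2 miRNA genes were mir-9371, with 3752, 5341 and 3756 reads, and mir-9388, with 4281, 3585 and 1992. asRNA:CR46484 lay under 108388, 97787 and 86364 reads (5202 ± 441 CPM), and asRNA:bsAS, antisense to bs, the gene of the fly serum response factor, under 44741, 48973 and 39655 (2377 ± 269 CPM).

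Although no tRNA gene was listed, 14 of 295 tRNA genes (4.75%) lay under 7 peaks, against 8.64% of all genes that a coherent peak overlapped. The highest of them was that of tRNA:Ala-AGC-2-4, with 35874, 44801 and 32500 reads (2020 ± 374 CPM). A cluster of 5 histidine tRNA genes, 1 of them a pseudogene by its name, lay under a peak of 27408, 24191 and 20869 reads (1288 ± 137 CPM) listed with garz and CG8490, and a serine pair under 14388, 17098 and 14565 (822 ± 102 CPM). Near-identical tRNA copies may share reads of 50 bases.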
